A study of Mus musculus with 9 samples.

Results

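Colitis brought on by dextran sulfate sodium (DSS) is compared here with the untreated mouse colon, gene by gene. The members are the 13924 genes, of 35315 in the deposited table, that reached 1 FPKM (fragments per kilobase of transcript, scaled to the mapped fragments of the library) in at least 3 of 6 libraries, the 3 labelled Control and the 3 labelled DSS. All mice were wild-type C57BL/6J aged 8 weeks, and total RNA of the colon was sequenced. Control mice drank plain water. DSS mice drank 2.5% DSS for 7 days and were injected with solvent into a vein on days 2, 4 and 6. A further 3 libraries came from mice that drank DSS and were injected on the same days with GsMTx4 at 10 mg/kg. GsMTx4 is a peptide from spider venom that blocks mechanically gated cation channels. These libraries entered the main model only through its estimate of the spread, which all 3 groups share. For Control mice the labels list no injection, and the effect of DSS and that of injection cannot be told apart. Whether libraries of 1 group stem from different animals is not stated, so p-values measure the spread between libraries, which may be partly technical.

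The colon is lined by a single sheet of epithelium that is renewed from stem cells at the base of its crypts. Absorptive colonocytes take up water, salt and the short-chain fatty acids made by bacteria, and goblet cells secrete the mucus that keeps those bacteria away. DSS is a sulfated sugar polymer that injures this sheet; neutrophils then enter the tissue, and surviving epithelial cells spread over the wound. In whole tissue, fewer cells of a type and less RNA per cell cannot be told apart.

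The labelled tissue was checked against its markers. The epithelial adhesion gene Epcam stood at 826, 667 and 638 FPKM in Control, against 555, 659.6 and 658 FPKM in DSS, and the keratin gene Krt8 between 1761 and 2628 FPKM over the 6 libraries. The goblet cell mucin gene Muc2 stood at 156, 242 and 240.5 FPKM in Control, against 222, 178 and 495 FPKM in DSS. The distal colon gene Hoxb13 was found in all 6 libraries, at 172, 145 and 149 FPKM in Control, against 97.3, 108 and 38.8 FPKM in DSS. A second posterior gene, Hoxd13, differed within both groups and stood at 56.4, 4.73 and 8.23 FPKM in Control, against 52.1, 36.8 and 6.06 FPKM in DSS. Control 1, DSS 1 and DSS 2 were thus high for Hoxd13, and Control 2, Control 3 and DSS 3 were low. The part of the site of sampling in the results was not tested. Epcam, Krt8 and both Hox genes were chosen after their values had been seen. Other markers set down for this check, Cdh17, Vil1, Krt19, Car1, Slc26a3 and Hoxa13, are not given, and Krt20 is given below. Of 22 liver genes 18 and of 11 skeletal muscle genes 10 were under the filter on low values. The whole acinar list summed to 64.4 to 71.3 FPKM in Control and 23.9 to 30.6 FPKM in DSS, nearly all of it Cela1, and the red blood cell list to 14.3 to 37.4 and 17.9 to 78.6 FPKM.

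The 6 libraries separated by group on the leading principal component, which held 58.7% of the variance. Control libraries lay between -38.8 and -37.2 and DSS libraries at 29.9, 41.9 and 41.8. The next component, with 16.4%, set DSS 3 at -37.0 against 10.3 for DSS 1 and 28.1 for DSS 2. DSS libraries also differed more from each other than Control libraries did: the SD of log2(FPKM + 1) had a median of 0.234 in DSS and 0.123 in Control, and 74.9% of genes had the larger SD in DSS. Between 12830 and 14036 genes reached 1 FPKM, and relative depth, read from the steps that whole reads leave in low values, ran from 0.877 (DSS 3) to 1.09 (DSS 2) times that of Control 1.

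A gene is said below to have risen or fallen when its adjusted p from limma, Benjamini-Hochberg over all tested genes, was under 0.05 in the fit of all 9 libraries and, in the same direction, in each of the 9 fits that omitted 1 library. By this rule 339 genes rose, 2.43% of those tested, and 549 fell, 3.94%, together 6.38%. In the fit of all libraries alone, 927 genes (6.66%) were higher and 1561 (11.2%) lower in DSS; without Control 1, Control 2 or Control 3 there were 505, 396 and 436 higher and 798, 601 and 676 lower, and without DSS 2 950 were lower. The differences below are DSS minus Control on the log2(FPKM + 1) scale, which understates the change of low genes. They are given ± SE with 3 libraries a group, and the SE rests on the spread within all 3 groups, GsMTx4 included. Their median over all tested genes was -0.17. Rescaling to TPM (FPKM scaled to the same sum in each library), by median of ratios and by quantiles moved that median by -0.11, 0.16 and 0.11. The fit of all libraries then called 644, 1413 and 1355 genes higher and 1698, 930 and 1371 lower, so the balance of directions depended on the scaling. Scaling by median of ratios and by quantiles was computed over all 9 libraries, so the GsMTx4 libraries also entered there. Of the 888 genes that rose or fell, 881 were called the same way under all 3 scalings, 6.33% of tested genes.

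**Figure D1:**
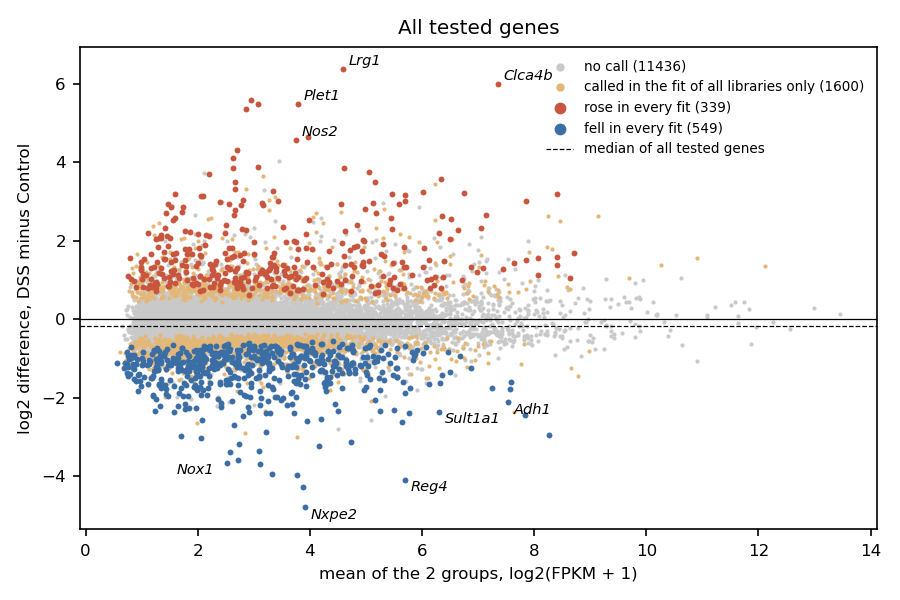
Log2 difference between DSS and Control (y axis) against the mean level of both groups in log2(FPKM + 1) (x axis) for all 13924 tested genes. Red points are the 339 genes that rose and blue points the 549 that fell in every fit, orange points those called in the fit of all libraries only, and the dashed line is the median of -0.17.

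Genes that appeared with DSS made up part of the rises. At 1 FPKM or more in all 3 DSS libraries and in no Control library were 173 genes, of which 61 rose. The reverse pattern was found in 254 genes, of which 80 fell. Such genes passed the filter through the group in which they were high, and their counts support no direction of a list. Among genes that rose the median level was 3.88 FPKM in Control and 14.6 FPKM in DSS, and among genes that fell it was 10.6 and 3.57 FPKM. By at least 2-fold, 257 rose and 368 fell. Groups did not overlap for 13.7% of all tested genes with DSS above and 33.9% with DSS below, 47.6% in all. Of the 927 higher and 1561 lower calls in the fit of all libraries, 924 and 1559 had groups apart. For a called gene, groups that do not overlap therefore add little.

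The largest rises included secreted proteins of inflamed tissue and products of the surface epithelium. Lrg1, a secreted glycoprotein of the acute phase (chromosome 17, 56119678 to 56122001, GRCm38), stood at 1.40, 1.77 and 1.83 FPKM in Control, against 229, 306 and 151 FPKM in DSS. Clca4b, of a family first described as regulators of calcium-activated chloride channels (chromosome 3, 144910921 to 144932529), stood at 39.3, 10.6 and 17.4 FPKM in Control, against 2054, 1795 and 610.4 FPKM in DSS. Plet1, a surface protein of epithelial progenitors (chromosome 9, 50494525 to 50505482), stood at 0.706, 1.12 and 1.43 FPKM in Control, against 112, 54.0 and 126 FPKM in DSS. In each of the 3 genes the lowest DSS library lay far above the highest Control library, and DSS 3 was the lowest for Lrg1 and Clca4b but the highest for Plet1. The differences were 6.37 ± 0.76 for Lrg1 (adjusted p = 0.00146), 6.00 ± 0.97 for Clca4b (adjusted p = 0.00496) and 5.48 ± 0.52 for Plet1 (adjusted p = 0.000657). Mfsd2a, a carrier of lysophospholipids, went from 1.16, 0.553 and 0.263 FPKM in Control to 23.6, 23.6 and 20.4 FPKM in DSS, a log2 difference of 3.86 ± 0.55 (adjusted p = 0.00299), and the 3 DSS libraries nearly coincided. Tac1, the precursor of the neuropeptide substance P, stood at 2.08, 1.90 and 2.50 FPKM in Control, against 95.0, 79.5 and 60.5 FPKM in DSS (4.63 ± 0.67, adjusted p = 0.00304). It was the only member of the list of enteric neuron, glia and Cajal cell genes that rose, and it was highest in DSS 1, where the median of that list was lowest.

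The largest falls included genes of the mature and the secretory epithelium. Nxpe2, of a family with a neurexophilin domain whose role in the colon is unsettled (chromosome 9, 48318006 to 48353454), stood at 65.5, 85.8 and 84.1 FPKM in Control, against 2.78, 1.15 and 1.83 FPKM in DSS, a log2 difference of -4.79 ± 0.40 (adjusted p = 0.000456). Reg4, a lectin of deep crypt secretory cells, stood at 229.8, 215 and 196 FPKM in Control, against 21.5, 13.9 and 4.91 FPKM in DSS (-4.09 ± 0.58, adjusted p = 0.00299). Mptx1, a mucosal pentraxin, stood at 573, 1113 and 988 FPKM in Control, against 77.7, 87.0 and 199.6 FPKM in DSS (-2.94 ± 0.50, adjusted p = 0.00611). The groups are far apart in all 3, with DSS 3 lowest for Reg4 and highest for Mptx1. Acer1, a ceramidase, fell by 3.19 (SE 0.33, adjusted p = 0.000884) and the sugar phosphate carrier Slc37a2 by 3.12 (SE 0.35, adjusted p = 0.00122). Aldh1b1, a mitochondrial aldehyde dehydrogenase of crypt progenitors, went from 111, 129 and 131 FPKM in Control to 17.4, 19.9 and 20.3 FPKM in DSS (-2.62 ± 0.26, adjusted p = 0.000789), with the DSS libraries almost equal.

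**Figure D2:**
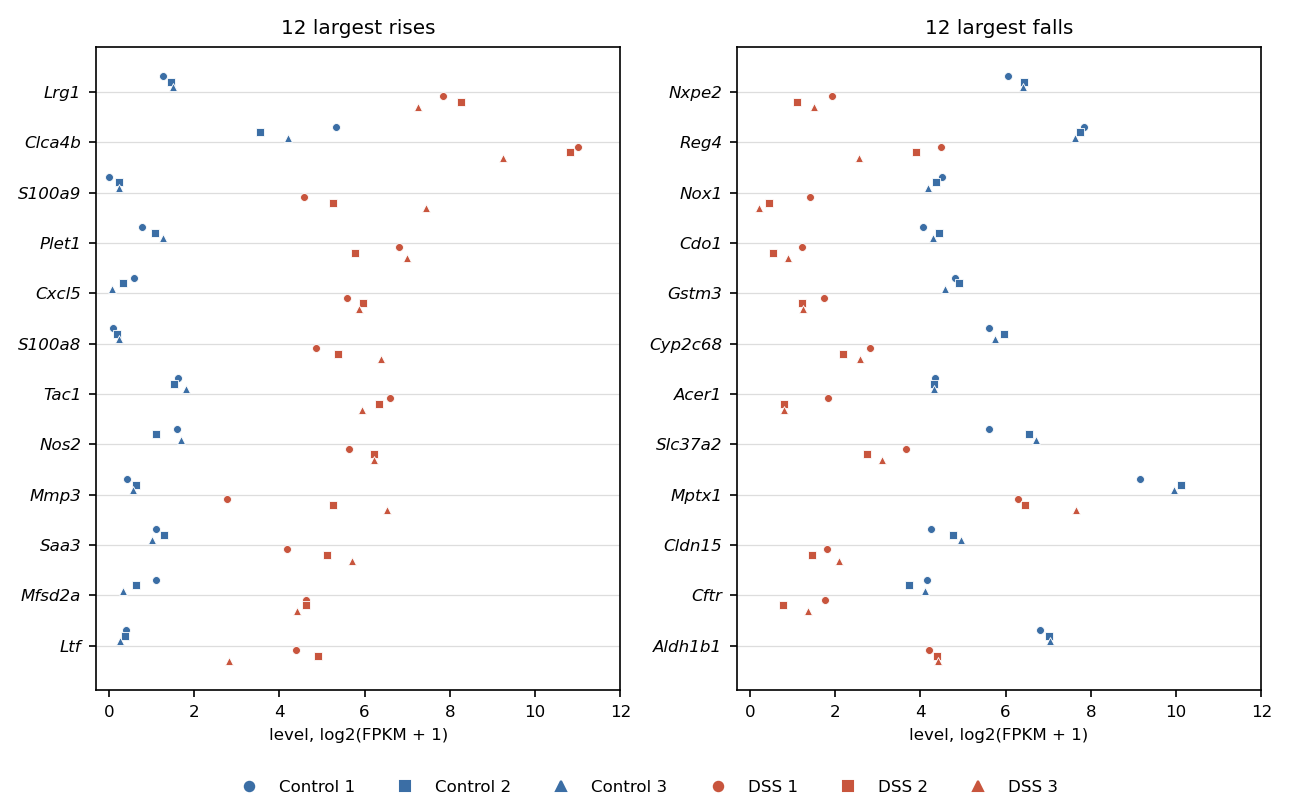
Level in log2(FPKM + 1) of the 12 genes with the largest rises (left) and the 12 with the largest falls (right), without predicted genes, in each of the 3 Control libraries (blue) and 3 DSS libraries (red). Only genes whose groups did not overlap could be chosen, and the DSS libraries are furthest apart for Mmp3, at 5.84, 37.3 and 91.6 FPKM.

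The promoters of 5 genes are printed because these genes stand for the main directions of change among inflammatory genes: 2 interferon-response genes that fell, Rsad2 and Oas3, and an acute-phase gene, a chemokine gene and a feedback inhibitor gene that rose. Each line gives the 250 bases before the RefSeq start of the gene (GRCm38.p6), 5′ to 3′ on the gene's strand, and capitals mark the motif. Oas3, which senses double-stranded RNA, was chosen for its promoter after its values had been seen and stood at 32.3, 31.2 and 34.8 FPKM in Control, against 7.89, 8.75 and 14.8 FPKM in DSS (-1.60 ± 0.21, adjusted p = 0.00214). The windows are chr12:26456453-26456702 for Rsad2, chr5:120777660-120777909 for Oas3, chr7:46715677-46715926 for Saa3 and chr11:117969367-117969616 for Socs3, all on the minus strand, and chr5:90890995-90891244 for Cxcl1 on the plus strand. The Socs3 window lies inside the GENCODE span of the gene (117966079 to 117970047), so its motif is not upstream of that span.
Rsad2: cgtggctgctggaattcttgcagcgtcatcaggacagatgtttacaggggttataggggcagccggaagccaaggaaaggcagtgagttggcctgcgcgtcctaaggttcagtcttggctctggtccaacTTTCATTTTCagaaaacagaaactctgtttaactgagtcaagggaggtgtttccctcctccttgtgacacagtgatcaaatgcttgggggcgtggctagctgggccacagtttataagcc
Oas3: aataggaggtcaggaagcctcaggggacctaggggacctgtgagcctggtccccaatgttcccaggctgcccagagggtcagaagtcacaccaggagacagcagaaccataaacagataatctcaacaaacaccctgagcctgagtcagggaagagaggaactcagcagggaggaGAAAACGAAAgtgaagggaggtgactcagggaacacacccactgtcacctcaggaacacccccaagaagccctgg
Saa3: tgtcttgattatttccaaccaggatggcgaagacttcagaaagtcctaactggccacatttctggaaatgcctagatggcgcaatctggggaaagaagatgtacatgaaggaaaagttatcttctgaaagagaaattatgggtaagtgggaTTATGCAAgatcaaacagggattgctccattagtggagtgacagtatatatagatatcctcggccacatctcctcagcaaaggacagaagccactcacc
Cxcl1: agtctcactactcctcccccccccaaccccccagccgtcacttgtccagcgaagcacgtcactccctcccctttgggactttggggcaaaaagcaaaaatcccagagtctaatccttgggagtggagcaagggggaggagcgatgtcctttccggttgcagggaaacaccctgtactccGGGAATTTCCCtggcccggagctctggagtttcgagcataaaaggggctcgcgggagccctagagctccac
Socs3: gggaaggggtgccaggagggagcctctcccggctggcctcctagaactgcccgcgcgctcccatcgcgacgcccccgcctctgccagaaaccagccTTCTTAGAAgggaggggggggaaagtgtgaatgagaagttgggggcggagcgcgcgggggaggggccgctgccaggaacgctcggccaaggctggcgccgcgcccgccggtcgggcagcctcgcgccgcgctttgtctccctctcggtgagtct
In Rsad2 and Oas3 the capitals are the interferon-stimulated response element, searched as GAAANNGAAA on both strands and found from -120 to -111 and from -75 to -66. In Saa3 they mark a C/EBP motif (TTGCNNAA, -99 to -92), in Socs3 a STAT motif (TTCNNNGAA, -154 to -146) and in Cxcl1 a kappa B motif, found at -71 to -62 and again 1 base on, the 2 matches overlapping. The response element was present before 3.46% of the 27025 genes in the promoter table, the STAT motif before 8.13%, the kappa B motif before 4.46% and the C/EBP motif before 10.8%. Of the 41 interferon-response genes 27 had a promoter in the table and 18 of these held the response element, including 4 of the 8 with a promoter that fell. Among the 10 promoters available for the 12 largest rises the C/EBP motif was present in 5, the response element in 1 and the STAT and kappa B motifs in 0. The C/EBP motif was present in 36 of 231 promoters (15.6%) of genes that rose and in 45 of 388 (11.6%) of genes that fell. A match is a description of these letters and not evidence of binding.

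Interferon-response genes, which cells switch on when interferon binds its receptors, fell in part. Of 41 tested genes 12 fell, and another 12 were called lower only in the fit of all libraries. The median difference was -1.23, against -0.17 for all tested genes. Rsad2, which encodes the antiviral protein viperin, stood at 15.1, 20.7 and 26.1 FPKM in Control, against 1.60, 2.69 and 5.90 FPKM in DSS (-2.39 ± 0.44, adjusted p = 0.00838). The antiviral GTPase gene Mx1 stood at 20.7, 21.3 and 34.1 FPKM in Control, against 3.53, 4.00 and 7.16 FPKM in DSS (-2.18 ± 0.29, adjusted p = 0.00244). Ifi44 stood at 12.6, 15.3 and 23.4 FPKM in Control, against 1.58, 3.73 and 5.94 FPKM in DSS (-1.999 ± 0.36, adjusted p = 0.00724). Every DSS library was below every Control library in the 3 genes, and DSS 1 was the lowest. DSS 1 was also the lowest for the list, whose median relative to the Control mean was -1.82, -0.80 and -0.88 in DSS 1, DSS 2 and DSS 3. Ifng, the gene of interferon gamma, stood at 3.13, 2.73 and 3.17 FPKM in Control, against 0.639, 3.29 and 1.18 FPKM in DSS and did not pass (-0.69 ± 0.39, adjusted p = 0.228), with DSS 1 lowest here as well. Among 21 genes of MHC class I and antigen processing no call outlasted the omission of a library; 3 were called lower by limma in the fit of all libraries and 8 had an unadjusted p under 0.05. Of these, the class I transactivator gene Nlrc5 stood at 16.3, 17.7 and 21.7 FPKM in Control, against 10.2, 8.19 and 12.5 FPKM in DSS (-0.80 ± 0.18, adjusted p = 0.0166, and up to adjusted p = 0.0686 with 1 library omitted).

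Several neutrophil genes were close to 0 in Control and rose in DSS. Of 26 listed genes 15 passed the filter on low values and 10 of these rose, but 7 of the 15 were under 1 FPKM in every Control library, so they passed through DSS alone and had to differ. All 7 rose, and of the 8 others 3 rose. S100a8 and S100a9 encode the 2 chains of calprotectin, a metal-binding protein of neutrophils. S100a9 stood at 0, 0.183 and 0.175 FPKM in Control, against 22.8, 37.1 and 172 FPKM in DSS (5.59 ± 0.89, adjusted p = 0.00462). S100a8 stood at 0.0735, 0.137 and 0.191 FPKM in Control, against 28.1, 40.5 and 83.2 FPKM in DSS (5.37 ± 0.66, adjusted p = 0.00174). Both were close to 0 in Control and highest in DSS 3. Ltf, the iron-binding granule protein lactoferrin, stood at 0.329, 0.295 and 0.203 FPKM in Control, against 20.1, 29.2 and 6.10 FPKM in DSS (3.70 ± 0.54, adjusted p = 0.00329) and was instead lowest in DSS 3. The primary granule gene Mpo was at 0 in 5 of the 6 libraries and at 0.0129 FPKM in DSS 2, a value under the filter; it was looked up after the values had been seen. Chil3, a chitinase-like protein of macrophages and neutrophils, stood at 1.77, 0.373 and 0.773 FPKM in Control, against 11.97, 23.1 and 30.3 FPKM in DSS (3.50 ± 0.38, adjusted p = 0.00113). Lysozyme Lyz2 stood at 290.1, 199.8 and 160.0 FPKM in Control, against 494, 593 and 569 FPKM in DSS (1.39 ± 0.23, adjusted p = 0.00529). These 2 were the only ones of 21 monocyte and macrophage genes that rose, and 4 others were called only in the fit of all libraries. Prg2, the major basic protein of eosinophils, stood at 0.844, 1.15 and 0.432 FPKM in Control, against 2.94, 4.16 and 5.39 FPKM in DSS (1.51 ± 0.21, adjusted p = 0.00299), and it was the only one of 6 tested mast cell and eosinophil genes with a positive difference. The other 5 had negative differences, 3 of them with an unadjusted p under 0.05, and 1 was called lower in the fit of all libraries but not in every fit. The median of this list was -0.98.

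Of 32 secreted antimicrobial and acute-phase genes 20 passed the filter on low values, 11 of which rose and 1 of which, Reg4, fell. Of these 20, 3 passed through DSS alone, and among the 17 others 10 rose. The serum amyloid gene Saa3 stood at 1.15, 1.47 and 1.005 FPKM in Control, against 17.2, 34.0 and 51.6 FPKM in DSS (3.87 ± 0.37, adjusted p = 0.000666). Its DSS libraries rank as those of S100a8 do. Retnlb, the goblet cell protein RELM-beta, stood at 15.6, 13.0 and 12.4 FPKM in Control, against 53.8, 277 and 157 FPKM in DSS (3.20 ± 0.51, adjusted p = 0.00476), with DSS libraries far from each other and all above Control. Reg3b, a bactericidal lectin, stood at 0.0865, 0.200 and 0.288 FPKM in Control, against 1.52, 9.45 and 149 FPKM in DSS. It passed the filter through DSS alone, so its groups had to be apart, and the DSS libraries were far from each other. The difference did not pass (3.73 ± 1.17, adjusted p = 0.0559), and it passed without DSS 1 (5.06, adjusted p = 0.0115) or without DSS 3 (2.11, adjusted p = 0.0457). It also passed with a pseudocount of 0.1 (adjusted p = 0.0352), with rescaling to TPM, with sample weights and with the replicate number as a block.

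The enzymes that make reactive oxygen and nitric oxide changed in both directions. Nos2, the inducible nitric oxide synthase (chromosome 11, 78920787 to 78960254), stood at 2.01, 1.16 and 2.22 FPKM in Control, against 48.7, 74.2 and 74.0 FPKM in DSS (4.57 ± 0.63, adjusted p = 0.00262). Gch1, which makes the tetrahydrobiopterin cofactor that nitric oxide synthases need, stood at 5.91, 4.75 and 3.72 FPKM in Control, against 12.7, 14.7 and 10.5 FPKM in DSS (1.24 ± 0.19, adjusted p = 0.00428). Duoxa2, the maturation factor of the hydrogen peroxide source DUOX2, stood at 17.7, 10.5 and 12.4 FPKM in Control, against 82.2, 95.3 and 99.8 FPKM in DSS (2.71 ± 0.26, adjusted p = 0.000657). In all 3 every DSS library lay above every Control library. In contrast Nox1, the superoxide-forming oxidase of colonocytes (chromosome X, 134086421 to 134221956), stood at 21.7, 19.8 and 17.1 FPKM in Control, against 1.67, 0.375 and 0.157 FPKM in DSS (-3.66 ± 0.47, adjusted p = 0.00198). Its activator subunit gene Noxa1 stood at 20.8, 25.3 and 23.7 FPKM in Control, against 7.88, 7.05 and 11.1 FPKM in DSS (-1.35 ± 0.27, adjusted p = 0.0114). Of the 15 tested genes of this list 4 rose and 2 fell, with a median of 0.68.

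Among cytokines and their receptors the barrier cytokine Il22 stood at 0.205, 0 and 0 FPKM in Control, against 4.66, 6.15 and 7.24 FPKM in DSS (2.70 ± 0.43, adjusted p = 0.00462). The interleukin-1 decoy receptor Il1r2 stood at 0.407, 0.318 and 0.428 FPKM in Control, against 3.36, 3.90 and 8.24 FPKM in DSS (2.07 ± 0.26, adjusted p = 0.00173). The epithelial cytokine Il18 stood at 50.7, 57.4 and 45.9 FPKM in Control, against 117, 119 and 90.9 FPKM in DSS (1.07 ± 0.20, adjusted p = 0.00910). The STAT3 feedback inhibitor Socs3 stood at 11.5, 11.1 and 11.8 FPKM in Control, against 101, 109 and 81.8 FPKM in DSS (2.97 ± 0.48, adjusted p = 0.00513), with tight libraries in both groups. Il22 and Il1r2 were under 1 FPKM in every Control library, so they passed the filter through DSS alone and their groups had to be apart. Groups were also apart for Il18 and Socs3. Several classical cytokines were not called. Il1b stood at 5.81, 4.14 and 4.24 FPKM in Control, against 8.19, 13.8 and 56.3 FPKM in DSS (1.80 ± 0.55, adjusted p = 0.0504). Tnf stood at 3.98, 3.08 and 4.10 FPKM in Control, against 5.50, 9.42 and 15.8 FPKM in DSS (1.15 ± 0.36, adjusted p = 0.0528), with DSS 3 highest and DSS 1 lowest in both. Without DSS 1 both passed (2.36, adjusted p = 0.0170 for Il1b and 1.49, adjusted p = 0.0209 for Tnf), and Il1b also without DSS 3 (1.04, adjusted p = 0.0326). Both also passed under median-of-ratios scaling (adjusted p = 0.0373 for Il1b and adjusted p = 0.0386 for Tnf), quantile normalization and sample weights. Il1b passed with pseudocounts of 0.1 and 0.01. Tnf passed in the fit of the 6 Control and DSS libraries alone (adjusted p = 0.0490) and without GsMTx4 1 or GsMTx4 2. Neither passed under the remaining alternatives. Il10 stood at 1.45, 1.91 and 1.04 FPKM in Control, against 0.688, 1.65 and 1.32 FPKM in DSS (-0.16 ± 0.24, adjusted p = 0.643), with overlapping groups. Il6 was under the filter at 0.0986, 0 and 0.0269 FPKM in Control, against 0.179, 0.236 and 1.35 FPKM in DSS, and so was Il17a at 0, 0 and 0 FPKM in Control, against 0.120, 0.199 and 0.398 FPKM in DSS. Rel, the c-Rel subunit of NF-kB, stood at 2.17, 1.95 and 2.26 FPKM in Control, against 11.8, 9.20 and 9.23 FPKM in DSS (1.82 ± 0.26, adjusted p = 0.00324). It was the only one of 32 pattern receptor and NF-kB genes to rise, near the 2.43% of all tested genes that rose. Another 7 were called in the fit of all libraries only. Of 30 TNF superfamily genes 4 rose, among them the receptor genes Tnfrsf23 (1.84 ± 0.21), Tnfrsf13b (1.49 ± 0.26) and Tnfrsf1a (0.79 ± 0.13). Of these 3, Tnfrsf23 passed the filter through DSS alone.

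Some chemokines of inflammation and of lymphoid tissue rose, and a mucosal one fell. Of 28 tested chemokines 6 rose and 1 fell (median 0.68). Of these 28, 4 passed the filter through DSS alone, Cxcl5 and Cxcl1 among them, and 3 of the 4 rose. Among the 24 others 3 rose. The neutrophil attractant Cxcl5 stood at 0.511, 0.261 and 0.0520 FPKM in Control, against 47.3, 61.5 and 57.4 FPKM in DSS (5.47 ± 0.56, adjusted p = 0.000843). Cxcl1 stood at 0.361, 0.123 and 0.185 FPKM in Control, against 5.82, 4.35 and 8.67 FPKM in DSS (2.53 ± 0.31, adjusted p = 0.00173). Cxcl13, which draws B cells into follicles, stood at 10.7, 20.3 and 19.7 FPKM in Control, against 188, 244 and 77.9 FPKM in DSS (3.16 ± 0.42, adjusted p = 0.00223), with DSS 3 lowest. Ccl28, an epithelial chemokine for IgA-secreting cells, stood at 45.04, 36.6 and 38.6 FPKM in Control, against 23.04, 25.1 and 22.8 FPKM in DSS (-0.73 ± 0.13, adjusted p = 0.00737). Genes of migrating dendritic cells were higher: the homing receptor Ccr7 stood at 1.99, 1.79 and 3.19 FPKM in Control, against 9.75, 8.67 and 13.4 FPKM in DSS (1.81 ± 0.27, adjusted p = 0.00351), and Ccl22 (1.65 ± 0.29) and the actin-bundling gene Fscn1 (1.63 ± 0.28) rose as well, 4 of 11 dendritic cell genes in all. Of these 11, 2 passed the filter through DSS alone, and 1 of the 2 rose. On the vessel side, Ccl21a, the lymphatic ligand of CCR7, stood at 40.4, 38.3 and 52.4 FPKM in Control, against 135, 209 and 213 FPKM in DSS (2.04 ± 0.25, adjusted p = 0.00168). Ackr1, a chemokine-binding receptor of venules, stood at 0.315, 1.47 and 2.32 FPKM in Control, against 6.90, 8.79 and 10.3 FPKM in DSS (2.11 ± 0.31, adjusted p = 0.00329). Madcam1, the gut addressin, stood at 1.92, 0.434 and 1.16 FPKM in Control, against 5.52, 3.27 and 9.44 FPKM in DSS (1.67 ± 0.34, adjusted p = 0.0124). The endothelial list had 4 rises among 23 tested genes and a median of 0.84; 11 more were called in the fit of all libraries only, and the count of calls was 4 without Control 1, 4 without Control 2, 7 without Control 3, 9 without DSS 1, 6 without DSS 3.

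Ighg2b, an immunoglobulin G heavy chain, stood at 32.2, 41.9 and 30.1 FPKM in Control, against 279, 199.8 and 638 FPKM in DSS (3.22 ± 0.50, adjusted p = 0.00420) and was highest in DSS 3. Mzb1, a secretory cofactor of plasma cells, rose by 1.48 ± 0.29, and Xbp1, their secretory regulator, by 1.01 ± 0.18. The immunoglobulin light chain gene Igkc, among the 5 most abundant transcripts of the DSS group, stood at 2957, 3424 and 2096 FPKM in Control, against 4754, 6662 and 11407 FPKM in DSS (1.36 ± 0.40, adjusted p = 0.0435), and was not called in 7 of the 9 fits without 1 library (adjusted p up to 0.148). Of 22 B and plasma cell genes 3 rose and 11 more were called only in the fit of all libraries (median 1.45); the calls numbered 5 without Control 2, 4 without Control 3, 7 without DSS 3. No gene of 23 on the T, NK and innate lymphoid list passed by limma in the fit of all libraries, 5 had an unadjusted p under 0.05, and the median was 0.17. The interleukin-2 receptor gene Il2rb stood at 4.50, 4.27 and 4.00 FPKM in Control, against 7.58, 5.43 and 8.43 FPKM in DSS (0.61 ± 0.19, adjusted p = 0.0552). Granzyme Gzmb stood at 23.9, 40.1 and 37.4 FPKM in Control, against 13.3, 14.7 and 15.4 FPKM in DSS (-1.14 ± 0.39, adjusted p = 0.0716). Their differences had opposite signs, and their groups did not overlap, which was so for 47.6% of all tested genes. Both passed in the fit of the 6 Control and DSS libraries alone (adjusted p = 0.0410 for Il2rb and adjusted p = 0.0124 for Gzmb). Il2rb also passed under 6 other alternatives and Gzmb under 5. Among 12 MHC class II genes no rise outlasted the omissions; H2-DMb2 stood at 8.58, 3.77 and 4.57 FPKM in Control, against 34.3, 10.6 and 12.5 FPKM in DSS (1.48 ± 0.42, adjusted p = 0.0406), with DSS 1 well above the others.

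Complement genes rose in 5 of 20 cases, with a median of 0.68. Cd55, which protects cells from complement, stood at 6.86, 5.03 and 5.69 FPKM in Control, against 21.9, 29.1 and 25.5 FPKM in DSS (1.95 ± 0.16, adjusted p = 0.000456). Clusterin, Clu, a secreted chaperone and marker of regenerating epithelium, stood at 22.9, 5.27 and 8.77 FPKM in Control, against 72.2, 46.7 and 43.6 FPKM in DSS (2.25 ± 0.43, adjusted p = 0.00941), and Control 1 was well above the other Control libraries. The terminal component C7 rose by 1.24 ± 0.24 but passed the filter through DSS alone. In lipid mediator synthesis the inducible prostaglandin E synthase gene Ptges stood at 2.41, 3.25 and 2.81 FPKM in Control, against 9.13, 6.43 and 9.17 FPKM in DSS (1.26 ± 0.21, adjusted p = 0.00532). Alox5ap, which feeds 5-lipoxygenase, stood at 5.18, 6.10 and 4.47 FPKM in Control, against 10.1, 14.3 and 18.4 FPKM in DSS (1.26 ± 0.25, adjusted p = 0.0112). The eicosanoid-inactivating enzyme gene Ptgr1 stood at 14.5, 10.6 and 9.93 FPKM in Control, against 5.21, 5.64 and 4.55 FPKM in DSS (-1.03 ± 0.16, adjusted p = 0.00446). The leukotriene A4 hydrolase gene Lta4h stood at 16.9, 16.8 and 15.5 FPKM in Control, against 9.88, 11.1 and 9.13 FPKM in DSS (-0.66 ± 0.12, adjusted p = 0.00826). Ptgs2, cyclooxygenase-2, stood at 1.79, 1.44 and 2.35 FPKM in Control, against 2.79, 1.66 and 6.47 FPKM in DSS, with overlapping groups (0.57 ± 0.33, adjusted p = 0.237).

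Inflammasome and cell death genes were mixed. Gsdmd, the pore-forming gasdermin of pyroptosis, stood at 78.2, 81.6 and 96.8 FPKM in Control, against 222, 275 and 159 FPKM in DSS (1.31 ± 0.25, adjusted p = 0.00941), and Mefv, which encodes pyrin, rose by 1.12 ± 0.19. Nlrp6, an epithelial inflammasome sensor, stood at 83.0, 72.2 and 78.2 FPKM in Control, against 30.1, 34.8 and 19.3 FPKM in DSS (-1.48 ± 0.23, adjusted p = 0.00391). The NLRP3 partner gene Nek7 stood at 10.4, 10.1 and 9.96 FPKM in Control, against 3.26, 3.42 and 5.10 FPKM in DSS (-1.20 ± 0.15, adjusted p = 0.00203). Pycard, which encodes the adaptor ASC, stood at 50.8, 50.2 and 48.8 FPKM in Control, against 26.1, 31.0 and 28.3 FPKM in DSS (-0.79 ± 0.13, adjusted p = 0.00542). In this list of 19, 2 rose and 3 fell around a median of 0.00. Ripk3, the kinase of necroptosis, stood at 17.0, 13.4 and 12.7 FPKM in Control, against 59.5, 80.1 and 47.3 FPKM in DSS (2.02 ± 0.25, adjusted p = 0.00164), each DSS library well above Control. Of 33 apoptosis and necroptosis genes 3 rose, Ripk3 and the BCL2 relatives Bcl2a1d (1.15 ± 0.23) and Bcl2a1a (0.95 ± 0.14). These last 2 are near-identical copies whose reads may be shared.

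Genes of the wound-edge epithelium rose in 12 of 25 tested cases (median 1.37). Emp1, a membrane protein of spreading epithelium, stood at 8.46, 11.98 and 9.03 FPKM in Control, against 72.6, 138 and 169 FPKM in DSS (3.49 ± 0.29, adjusted p = 0.000456). Dhrs9, a retinol dehydrogenase, stood at 2.09, 2.50 and 2.23 FPKM in Control, against 19.9, 31.4 and 45.1 FPKM in DSS (3.27 ± 0.41, adjusted p = 0.00178). For both genes DSS 1 was the lowest DSS library and still far above Control. Several ligands of the EGF receptor rose. Epiregulin, Ereg, stood at 1.34, 1.76 and 1.35 FPKM in Control, against 18.2, 15.1 and 20.2 FPKM in DSS (2.92 ± 0.24, adjusted p = 0.000456). Amphiregulin, Areg, stood at 13.8, 13.5 and 15.99 FPKM in Control, against 46.9, 45.5 and 27.1 FPKM in DSS (1.37 ± 0.22, adjusted p = 0.00462). Hbegf stood at 3.51, 1.82 and 3.38 FPKM in Control, against 10.5, 7.00 and 7.68 FPKM in DSS (1.28 ± 0.24, adjusted p = 0.00938). Areg was lowest in DSS 3. On the receiving side, Etv4, a transcription factor induced by ERK signalling, stood at 6.67, 8.01 and 4.34 FPKM in Control, against 0.974, 0.397 and 0.511 FPKM in DSS (-2.16 ± 0.28, adjusted p = 0.00208). Lrig3, listed with the EGF receptor genes, stood at 11.6, 11.03 and 10.8 FPKM in Control, against 3.65, 3.21 and 3.75 FPKM in DSS (-1.43 ± 0.12, adjusted p = 0.000487). In the whole list of 24, 4 rose and 2 fell. The laminin chain gene Lama3, part of the sheet under migrating epithelium, rose by 1.69 ± 0.34, and it was the only one of 29 integrin and laminin genes to do so. That count is near the 2.43% of all tested genes that rose. Epithelial keratins did not pass (0 of 7 by limma, 2 with an unadjusted p under 0.05); Krt20 stood at 596, 597 and 473 FPKM in Control, against 747, 950.5 and 689 FPKM in DSS (0.51 ± 0.19, adjusted p = 0.0925).

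Crypt stem and progenitor genes fell in 9 of 20 tested cases and rose in 1, with a median of -0.97. The largest fall in this list was that of the chloride channel gene Cftr, which is given below and also counts in the ion transport list. Ascl2, the transcription factor of crypt base stem cells, stood at 3.22, 4.77 and 5.05 FPKM in Control, against 0, 0.0571 and 0.0906 FPKM in DSS (-2.33 ± 0.40, adjusted p = 0.00643) and was thus near 0 throughout DSS. Lgr5, the R-spondin receptor that marks these cells, did not pass the filter, at 0.975, 0.840 and 1.01 FPKM in Control and at most 0.0227 FPKM in DSS. Hopx stood at 24.4, 20.6 and 21.04 FPKM in Control, against 5.75, 4.40 and 4.01 FPKM in DSS (-2.02 ± 0.40, adjusted p = 0.0109). The opposite case was Prom1, which encodes the membrane protein prominin 1 and stood at 4.58, 6.82 and 5.48 FPKM in Control, against 17.5, 35.7 and 25.7 FPKM in DSS (2.00 ± 0.30, adjusted p = 0.00388). In the Wnt list the receptor gene Fzd1 stood at 8.25, 7.92 and 9.01 FPKM in Control, against 21.4, 25.8 and 27.1 FPKM in DSS (1.45 ± 0.13, adjusted p = 0.000590). The ligand gene Wnt5a stood at 0.924, 1.25 and 1.01 FPKM in Control, against 2.33, 2.74 and 3.86 FPKM in DSS (0.93 ± 0.17, adjusted p = 0.00816). The nuclear repressor gene Tcf7l1 stood at 19.5, 16.7 and 17.2 FPKM in Control, against 8.98, 6.67 and 5.11 FPKM in DSS (-1.27 ± 0.21, adjusted p = 0.00522). The other 23 of 26 had no call in every fit, and over all tested genes 2.43% rose and 3.94% fell. Bmp8b stood at 0.143, 0.237 and 0.228 FPKM in Control, against 2.93, 3.32 and 6.65 FPKM in DSS (2.08 ± 0.24, adjusted p = 0.00141), and the BMP antagonist gene Chrd and the ligand gene Bmp7 rose by 1.26 ± 0.20 and 0.99 ± 0.18. Plk1, a mitotic kinase, fell by 1.33 (SE 0.25, adjusted p = 0.00838), the only one of 42 replication and mitosis genes that fell in every fit, while 36 of them had an unadjusted p under 0.05 with DSS lower and the median was -0.81. This 1 fall among 42 is under the 3.94% of all tested genes that fell. Calls in that list depended on the libraries kept: 1 without Control 1, 1 without Control 2, 4 without Control 3, 12 without DSS 1, 2 without DSS 2, 2 without DSS 3, 19 without GsMTx4 1, 18 without GsMTx4 2, against 7 with all.

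Transcription factors that set intestinal identity fell in 8 of 32 cases (median -0.48), and 3 were called higher only in the fit of all libraries. Foxa2, a pioneer factor of endoderm, stood at 15.8, 15.7 and 14.1 FPKM in Control, against 3.22, 2.14 and 2.11 FPKM in DSS (-2.23 ± 0.18, adjusted p = 0.000456). The vitamin D receptor gene Vdr stood at 63.4, 58.9 and 64.1 FPKM in Control, against 27.8, 21.7 and 16.3 FPKM in DSS (-1.49 ± 0.18, adjusted p = 0.00162). The nuclear receptor gene Nr5a2 stood at 8.78, 8.77 and 9.38 FPKM in Control, against 4.13, 2.46 and 3.78 FPKM in DSS (-1.18 ± 0.18, adjusted p = 0.00351). All DSS libraries lay below all Control libraries in these. In the goblet cell list, Atoh1, the factor that commits cells to the secretory fate, stood at 27.5, 37.0 and 34.5 FPKM in Control, against 7.62, 12.4 and 12.8 FPKM in DSS (-1.53 ± 0.23, adjusted p = 0.00391), and Creb3l1 fell by 1.42 (SE 0.22, adjusted p = 0.00462). Best2, a bicarbonate channel of goblet cells, stood at 21.3, 22.9 and 26.3 FPKM in Control, against 4.63, 7.35 and 5.67 FPKM in DSS (-1.85 ± 0.17, adjusted p = 0.000657). Muc2 did not pass (0.37 ± 0.64, adjusted p = 0.699), and 3 of 32 goblet cell genes fell in all while Retnlb rose.

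Ion and water transport was among the lists with the most falls, 9 of 37 tested genes with a median of -0.64. The chloride channel gene Cftr (chromosome 6, 18170687 to 18322768) stood at 16.7, 12.3 and 16.2 FPKM in Control, against 2.42, 0.731 and 1.57 FPKM in DSS (-2.69 ± 0.33, adjusted p = 0.00174). The basolateral cotransporter gene Slc12a2, which loads chloride for secretion, stood at 26.8, 26.4 and 25.0 FPKM in Control, against 5.09, 7.12 and 5.35 FPKM in DSS (-1.99 ± 0.30, adjusted p = 0.00387). The potassium channel gene Kcnq1, which recycles the potassium, stood at 10.8, 13.7 and 16.2 FPKM in Control, against 3.72, 2.20 and 2.38 FPKM in DSS (-1.95 ± 0.24, adjusted p = 0.00154). These 3 parts of the chloride secretion pathway were named because their falls were the largest of the list. Aqp8, a water channel of surface colonocytes, stood at 242, 431 and 419.6 FPKM in Control, against 114, 89.0 and 106 FPKM in DSS (-1.78 ± 0.32, adjusted p = 0.00724). The paracellular pore gene Cldn15 stood at 18.1, 26.2 and 30.0 FPKM in Control, against 2.49, 1.76 and 3.29 FPKM in DSS (-2.87 ± 0.33, adjusted p = 0.00141), and the connexin gene Gjb2 (-1.08 ± 0.16) fell as well. In the wider list of claudins and other junction genes 4 of 31 fell, with a median of 0.02. Of 36 brush border and mature colonocyte genes 7 fell and 1, Ceacam20, rose (0.99 ± 0.19), around a median of -0.12. The small intestinal glucose carrier gene Slc5a1 fell by 1.36 (SE 0.21, adjusted p = 0.00422).

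Part of the enzymes that modify foreign and endogenous small molecules fell. Of 35 tested conjugation enzymes 10 fell, with a median of -0.60. Sulfotransferase Sult1a1, among the more abundant, stood at 196, 176 and 164 FPKM in Control, against 31.1, 38.3 and 32.8 FPKM in DSS (-2.36 ± 0.32, adjusted p = 0.00238). The glutathione transferase genes Gstm1 and Gstm3 are similar enough to share reads. Gstm1 stood at 120.1, 144 and 110.0 FPKM in Control, against 21.2, 21.6 and 25.3 FPKM in DSS (-2.40 ± 0.20, adjusted p = 0.000456). Gstm3 stood at 27.3, 28.8 and 22.9 FPKM in Control, against 2.36, 1.32 and 1.37 FPKM in DSS (-3.36 ± 0.23, adjusted p = 0.000456). The glucuronosyltransferase gene Ugt2b35 stood at 8.67, 10.2 and 9.21 FPKM in Control, against 1.13, 0.391 and 0.770 FPKM in DSS (-2.57 ± 0.28, adjusted p = 0.00113). Cytochrome P450 genes fell in 6 of 22 cases: Cyp2c68 stood at 48.0, 61.2 and 53.3 FPKM in Control, against 6.03, 3.57 and 5.03 FPKM in DSS (-3.25 ± 0.27, adjusted p = 0.000456). Cyp2f2 stood at 4.50, 7.76 and 7.95 FPKM in Control, against 0.503, 0.121 and 1.13 FPKM in DSS (-2.30 ± 0.34, adjusted p = 0.00343). Cyp4f18, a leukocyte enzyme that degrades leukotriene B4, was the only P450 gene that rose (1.08 ± 0.19). Cyp2c55, of the same subfamily as Cyp2c68, had no call, at 22.01, 21.8 and 8.83 FPKM in Control, against 0, 0.277 and 40.6 FPKM in DSS (-2.20 ± 1.55, adjusted p = 0.330).

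Retinoid enzymes changed in both directions. Adh1, which oxidises retinol and ethanol, stood at 422, 371 and 364 FPKM in Control, against 116, 125 and 46.0 FPKM in DSS (-2.12 ± 0.36, adjusted p = 0.00568), Aldh1a7 fell by 1.44 (SE 0.26, adjusted p = 0.00752) and the carotenoid oxygenase gene Bco2 by 1.03 (SE 0.20, adjusted p = 0.00976). Aldh1a3, which makes retinoic acid, stood at 1.01, 1.48 and 1.83 FPKM in Control, against 13.6, 16.5 and 16.8 FPKM in DSS (2.78 ± 0.20, adjusted p = 0.000456). Rdh16 stood at 16.2, 16.9 and 21.7 FPKM in Control, against 51.8, 52.4 and 41.5 FPKM in DSS (1.37 ± 0.24, adjusted p = 0.00733). With Dhrs9, 4 of 18 retinoid genes rose and 3 fell.

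**Figure D3:**
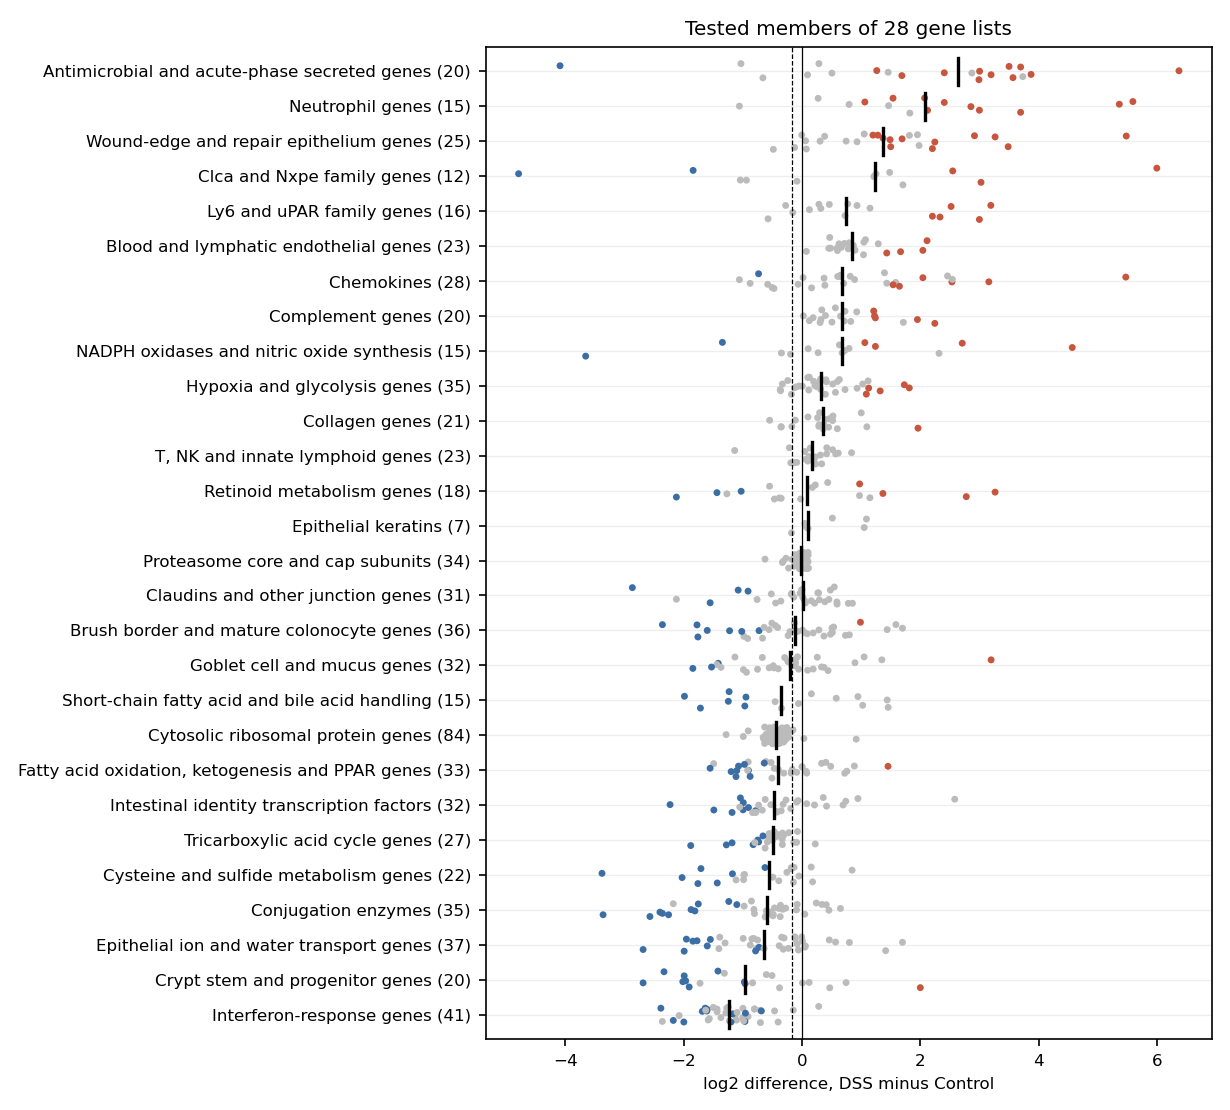
Log2 difference between DSS and Control (x axis) of each tested member of 28 gene lists, with the number tested in brackets; red members rose, blue members fell and grey members had no call in every fit, and the black bar is the list's median. Medians are 1.37 for wound-edge genes and -1.23 for interferon-response genes, beside -0.17 for all tested genes (dashed line).

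Part of the genes of sulfur and short-chain fatty acid metabolism fell. Colonocytes burn butyrate from bacteria and detoxify the sulfide made alongside it. Of 22 cysteine and sulfide genes 7 fell (median -0.56). Cdo1, which oxidises cysteine, stood at 15.7, 20.8 and 18.8 FPKM in Control, against 1.33, 0.458 and 0.868 FPKM in DSS (-3.38 ± 0.38, adjusted p = 0.00125). Cystathionine beta-synthase, Cbs, stood at 2.98, 4.02 and 4.55 FPKM in Control, against 0.164, 0.0836 and 0.297 FPKM in DSS (-2.03 ± 0.25, adjusted p = 0.00162). Selenbp1, a methanethiol oxidase that releases sulfide, stood at 344, 286 and 218 FPKM in Control, against 88.1, 90.9 and 67.1 FPKM in DSS (-1.76 ± 0.34, adjusted p = 0.00970). Of 15 genes that handle short-chain fatty acids and bile acids 6 fell, with a median of -0.35. Acsm3, a medium-chain acyl-CoA synthetase that activates butyrate-like acids, stood at 55.7, 63.0 and 53.7 FPKM in Control, against 16.5, 15.9 and 17.9 FPKM in DSS (-1.72 ± 0.14, adjusted p = 0.000456). The acetate-activating gene Acss2 stood at 13.9, 14.6 and 14.2 FPKM in Control, against 3.39, 2.74 and 2.44 FPKM in DSS (-1.99 ± 0.15, adjusted p = 0.000456). The citrate-cleaving gene Acly stood at 113, 103 and 86.4 FPKM in Control, against 35.9, 23.6 and 29.2 FPKM in DSS (-1.75 ± 0.18, adjusted p = 0.000843). Together with the desaturase gene Scd2 (-1.76 ± 0.34), these belong to a lipid synthesis list of 22 in which 5 fell and 2 rose. The 2 that rose were the triglyceride synthase gene Dgat2, at 5.66, 6.60 and 9.71 FPKM in Control, against 26.6, 34.1 and 23.8 FPKM in DSS (1.82 ± 0.22, adjusted p = 0.00154), and Acacb (1.17 ± 0.21).

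Of 33 fatty acid oxidation and PPAR genes 9 fell and 1 rose (median -0.40). The coactivator gene Ppargc1a stood at 8.54, 7.45 and 11.1 FPKM in Control, against 2.55, 2.98 and 1.72 FPKM in DSS (-1.55 ± 0.21, adjusted p = 0.00236). Hadh stood at 43.0, 45.4 and 44.9 FPKM in Control, against 20.3, 19.3 and 17.0 FPKM in DSS (-1.20 ± 0.15, adjusted p = 0.00169). Acat1 stood at 65.9, 62.9 and 57.6 FPKM in Control, against 28.5, 29.9 and 25.9 FPKM in DSS (-1.12 ± 0.15, adjusted p = 0.00208). The member that rose was Angptl4, a secreted inhibitor of lipoprotein lipase (1.45 ± 0.27). Tricarboxylic acid cycle genes fell in 7 of 27 cases (median -0.50). The isocitrate dehydrogenase gene Idh3a stood at 39.1, 45.8 and 43.4 FPKM in Control, against 21.1, 14.4 and 16.1 FPKM in DSS (-1.28 ± 0.15, adjusted p = 0.00154). Idh2, of the same step, stood at 35.5, 38.8 and 35.9 FPKM in Control, against 18.0, 13.6 and 15.5 FPKM in DSS (-1.18 ± 0.16, adjusted p = 0.00244). Pck1 stood at 18.2, 26.1 and 26.8 FPKM in Control, against 4.03, 5.11 and 8.38 FPKM in DSS (-1.88 ± 0.32, adjusted p = 0.00625). The respiratory chain itself was closer to the median of all genes: the 76 nuclear subunit genes had a median of -0.30, with 8 called in the fit of all libraries and none in every fit; the calls numbered 2 without Control 1, 0 without Control 2, 1 without Control 3, 3 without DSS 1, 2 without DSS 3, 4 without GsMTx4 2, 16 without GsMTx4 3. No mitochondrially encoded mRNA passed by limma (0 of 13, and 0 with an unadjusted p under 0.05). Cytosolic ribosomal protein genes had a median of -0.44 over 84 genes; 2 were called with all libraries and 26 without GsMTx4 3, which enters only through the estimate of the spread. With rescaling to TPM, by median of ratios and by quantiles these calls numbered 26, 0 and 38, and those of the nuclear respiratory chain 19, 1 and 20. Proteasome subunits had a median of -0.01, with 0 of 34 called by limma and 1 at an unadjusted p under 0.05.

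Genes of low oxygen and of iron moved in part. Of 35 hypoxia and glycolysis genes 5 rose (median 0.32). Hexokinase Hk2 stood at 36.9, 31.0 and 34.5 FPKM in Control, against 148, 122 and 101 FPKM in DSS (1.81 ± 0.36, adjusted p = 0.0112). The HIF hydroxylase gene Egln3 stood at 20.4, 14.5 and 13.0 FPKM in Control, against 62.6, 71.1 and 35.9 FPKM in DSS (1.73 ± 0.32, adjusted p = 0.00801). Hif1a stood at 32.8, 36.3 and 27.7 FPKM in Control, against 94.7, 85.6 and 67.2 FPKM in DSS (1.32 ± 0.20, adjusted p = 0.00388). All 3 were lowest in DSS 3 among the DSS libraries. The transferrin receptor gene Tfrc stood at 37.2, 34.2 and 71.9 FPKM in Control, against 8.70, 11.5 and 8.05 FPKM in DSS (-2.16 ± 0.37, adjusted p = 0.00606), with Control 3 far above the other Control libraries. Haem oxygenase, Hmox1, stood at 5.10, 4.78 and 4.27 FPKM in Control, against 16.3, 16.3 and 19.6 FPKM in DSS (1.69 ± 0.14, adjusted p = 0.000487). The metalloreductase gene Steap4 stood at 1.81, 2.26 and 2.34 FPKM in Control, against 8.06, 12.3 and 29.0 FPKM in DSS (2.29 ± 0.49, adjusted p = 0.0143). The phagosomal metal exporter gene Slc11a1 rose by 1.14 ± 0.21, and the zinc importer gene Slc39a5 and the reductase gene Steap3 fell by 1.54 (SE 0.18, adjusted p = 0.00140) and 1.07 (SE 0.18, adjusted p = 0.00646). In the secretory stress list 3 of 32 rose, Xbp1, Creld2 (1.08 ± 0.18) and Ppp1r15a (0.94 ± 0.19), while Eif2ak2, the interferon-inducible kinase PKR, fell (-1.11 ± 0.17). Antioxidant genes under Nrf2 were split, with 3 of 32 rising and 4 falling. The extracellular dismutase gene Sod3 (1.57 ± 0.27) and the sulfiredoxin gene Srxn1 (0.98 ± 0.15) rose, and the glutathione transferase gene Gsta3 fell (-2.26 ± 0.20). Of 22 immediate early genes 2 rose, Ier3 (1.37 ± 0.19) and the mRNA-destabilising gene Zfp36 (0.68 ± 0.12). Of 24 tested YAP pathway genes 1 rose, the kinase gene Lats2 (0.91 ± 0.17), and 1 fell, the TEAD cofactor gene Vgll4 (-0.96 ± 0.14). The median of that list was -0.09, and both counts are near the shares over all tested genes, 2.43% and 3.94%. Among 15 clock genes Clock fell (-1.16 ± 0.20).

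Stromal genes were uneven among the DSS libraries. Mmp3, a fibroblast matrix protease (chromosome 9, 7445822 to 7455975), stood at 0.335, 0.552 and 0.491 FPKM in Control, against 5.84, 37.3 and 91.6 FPKM in DSS (4.31 ± 0.81, adjusted p = 0.00889). The aggrecanase gene Adamts4 stood at 0.509, 1.22 and 1.07 FPKM in Control, against 7.09, 5.86 and 10.1 FPKM in DSS (2.16 ± 0.28, adjusted p = 0.00210). Its relative Adamts1 stood at 0.701, 1.76 and 1.74 FPKM in Control, against 6.31, 5.31 and 7.22 FPKM in DSS (1.63 ± 0.25, adjusted p = 0.00437). The DSS libraries were far apart for Mmp3 and close to each other for both Adamts genes. Col18a1, a collagen of vessel and epithelial basement membranes, stood at 4.98, 4.84 and 5.25 FPKM in Control, against 20.9, 17.1 and 31.7 FPKM in DSS (1.96 ± 0.28, adjusted p = 0.00279) and was the only one of 21 collagen genes to rise. Over all tested genes 2.43% rose. Ogn, a small proteoglycan, stood at 31.0, 36.9 and 36.9 FPKM in Control, against 13.2, 14.0 and 14.0 FPKM in DSS (-1.28 ± 0.21, adjusted p = 0.00568). Hhip, a Hedgehog-binding protein, stood at 1.94, 3.45 and 3.21 FPKM in Control, against 0.391, 0.512 and 0.263 FPKM in DSS (-1.46 ± 0.18, adjusted p = 0.00174). They were the only members of the fibroblast and the smooth muscle lists that fell, 1 of 30 and 1 of 18, beside 3.94% of all tested genes. Adipocyte genes rose in 2 of 9 cases, Fabp4 (1.47 ± 0.19) and Cidec (1.14 ± 0.22). Ttr, a carrier of thyroid hormone made by liver and enteroendocrine cells, stood at 24.5, 19.1 and 20.9 FPKM in Control, against 3.04, 5.19 and 2.08 FPKM in DSS (-2.40 ± 0.33, adjusted p = 0.00272). The pancreatic elastase gene Cela1 stood at 57.5, 64.3 and 63.0 FPKM in Control, against 24.1, 20.9 and 25.4 FPKM in DSS (-1.36 ± 0.23, adjusted p = 0.00549).

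By library, the smooth muscle list had medians of -1.07, -0.08 and 0.59 in DSS 1, DSS 2 and DSS 3 relative to the Control mean, and of -0.45, 0.21 and 0.23 in the 3 Control libraries. The enteric neuron, glia and Cajal cell list had -0.46, 0.19 and 1.66 in the DSS libraries. Collagens had 0.12, -0.10 and 0.96 and fibroblast genes 0.03, 0.17 and 0.94. DSS 3 was the highest in all 4 lists and DSS 1 the lowest in the first 2. The summed smooth muscle level was 634, 954 and 1017 FPKM in Control and 348, 858 and 1241 FPKM in DSS. Epithelial lists varied in this respect: enteroendocrine and tuft cell genes had -0.42, 0.27 and 0.84, goblet cell genes -0.62, -0.13 and 0.10, wound-edge genes 1.34, 1.44 and 1.18 and brush border genes -0.06, -0.15 and -0.12. The part of muscle and nerve tissue in the values of DSS 3 was not tested.

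**Figure D4:**
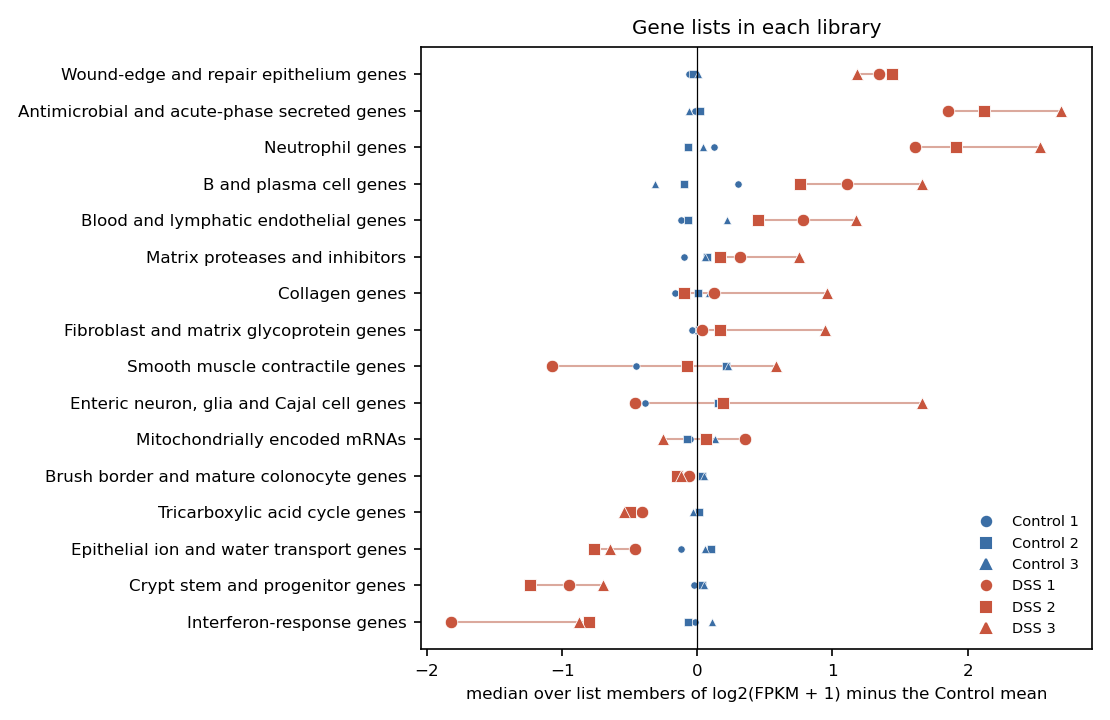
Median over the members of 16 gene lists of log2(FPKM + 1) minus the Control mean (x axis) in each Control library (blue) and each DSS library (red; circle 1, square 2, triangle 3). Smooth muscle and enteric nerve lists spread from -1.07 to 0.59 and from -0.46 to 1.66 over the DSS libraries, while wound-edge genes lie between 1.18 and 1.44.

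Single genes with wide spread within DSS were described without a test of the spread. Ido1, which degrades tryptophan and responds to interferon gamma, stood at 58.2, 59.5 and 67.0 FPKM in Control, against 8.36, 405 and 97.2 FPKM in DSS. Control was steady, DSS 1 was below it and DSS 2 far above it (0.21 ± 1.14, adjusted p = 0.908), and the difference took the opposite sign without DSS 2 (-1.04) or without DSS 3 (-0.02). Mmp10, a wound-edge protease, stood at 1.06, 0.954 and 0.863 FPKM in Control, against 0.566, 4.06 and 49.3 FPKM in DSS (1.91 ± 0.98, adjusted p = 0.194) and was far higher in DSS 3 than in the other libraries. DSS 2 was also above Control and DSS 1 below it, and without DSS 1 the difference passed (3.03, adjusted p = 0.0349). Plac9b, a small secreted protein gene, stood at 16.2, 13.5 and 13.7 FPKM in Control, against 18.8, 30.6 and 0 FPKM in DSS, and was thus listed at 0 in a single library. Piezo1, a mechanically gated channel that GsMTx4 blocks, stood at 4.29, 4.77 and 4.98 FPKM in Control, against 6.57, 3.67 and 8.46 FPKM in DSS (0.29 ± 0.31, adjusted p = 0.518), with overlapping groups.

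Genes that rose or fell also lay side by side on the chromosomes. Runs of at least 3 such genes in 1 direction, each within 250 kb of the next, were looked for after the values had been seen, and are given as a description. On chromosome 15, between 74762056 and 75222661, 7 of 13 tested genes rose (median 1.32). Ly6d, in this run, stood at 8.69, 6.03 and 3.23 FPKM in Control, against 54.3, 49.6 and 18.4 FPKM in DSS (2.52 ± 0.46, adjusted p = 0.00819). Ly6g, an antigen used to mark neutrophils, stood at 67.4, 88.8 and 87.2 FPKM in Control, against 564, 1036 and 472 FPKM in DSS (adjusted p = 0.00118) and was thus already present in Control. Gml, in the same run, was listed at 0 in all Control libraries and stood at 8.92, 11.4 and 5.23 FPKM in DSS (adjusted p = 0.000590). On chromosome 3, between 144861826 and 144975045, Clca4a (36.0, 41.2 and 33.2 FPKM in Control, against 184, 239.8 and 239 FPKM in DSS, 2.55 ± 0.25, adjusted p = 0.000717), Clca4b and the pseudogene Clca4c-ps rose, 3 of 4 tested genes; reads may be shared among them, and the call for Clca4c-ps was lost with a pseudocount of 0.1 (3.62, adjusted p = 0.0546). On chromosome 5, between 90759360 and 91148432, Cxcl5, Cxcl1, Ereg and Areg rose, 4 of 7. Falling runs included all 5 tested Gstm genes on chromosome 3, between 107926334 and 108017973, which had a median of -1.81. Nxpe4, of the same family as Nxpe2, stood at 32.6, 40.1 and 35.5 FPKM in Control, against 11.1, 9.45 and 7.62 FPKM in DSS (-1.84 ± 0.19, adjusted p = 0.000843). The annotated span of Nxpe4 (chromosome 9, 48162023 to 48400025) contains that of Nxpe2, and whether the 2 genes share reads was not tested.

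**Figure D5:**
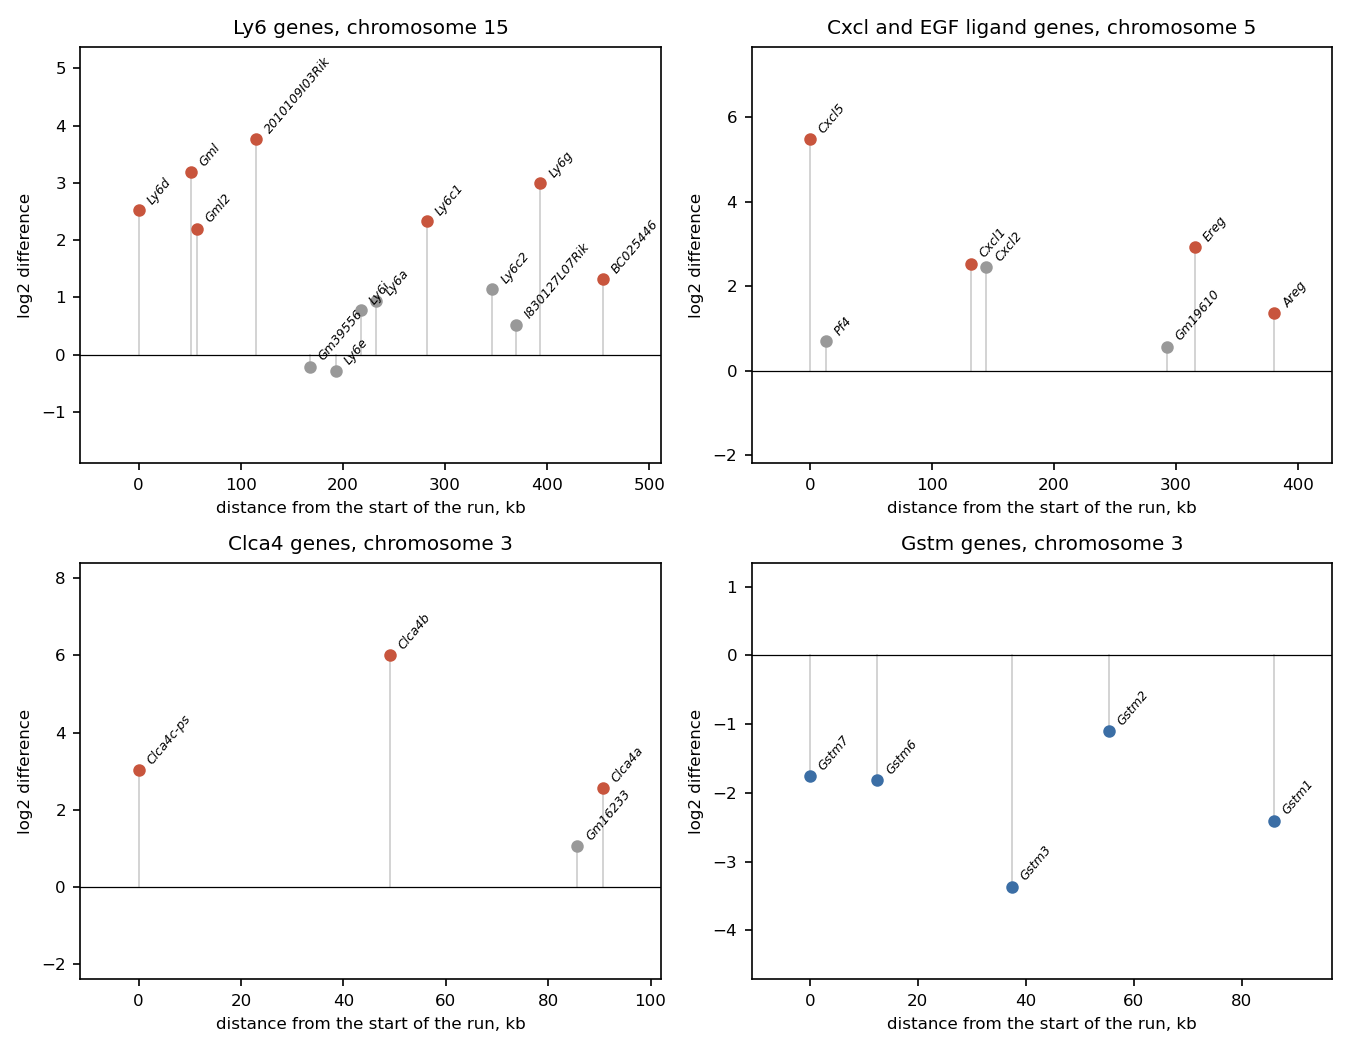
Log2 difference between DSS and Control (y axis) of each tested gene by its distance in kb from the start of the run (x axis) in 4 chromosome regions. Red genes rose, blue genes fell and grey genes had no call in every fit: 7 of 13 in the Ly6 region, 4 of 7 around Cxcl5, 3 of 4 in the Clca4 region and all 5 Gstm genes.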

How the data were processed

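RNA of mouse colon was measured by sequencing in 9 libraries, 3 a group. The authors deposited FPKM values per gene; cutadapt, FastQC and the build GRCm38 are named per the submitters' processing notes, and for the aligner and counting program: not given in the sources used here. Gene symbols and positions came from a GENCODE annotation of GRCm38, which named 35196 of the 35315 genes. Genes at 1 FPKM or more in at least 3 of the 6 Control and DSS libraries were tested on log2(FPKM + 1) with limma 3.58.1 in R 4.3.3: 1 mean per group over all 9 libraries, an empirical Bayes spread with a trend, 6 residual degrees of freedom, and Benjamini-Hochberg adjustment over 13924 genes. Total counts per library were not analysed here, so no counting intervals are given.

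Of named genes, the text gives the 12 largest rises and falls in every fit with groups apart (predicted genes and immunoglobulin segments left out), up to 3 rises and 3 falls per list, or the smallest p where none held, and genes listed whatever their p or for their level or spread. Members and lists were chosen with earlier results of these data known. Alternatives covered pseudocounts, filters, scalings, the spread model, a replicate block and the omission of each library. On simulated data of 13924 genes, with 100 changed at each size, a single fit at adjusted p under 0.05 tested DSS against Control. It recovered 70% at a log2 change of 1 and 96% at 2, with 7 false calls of 173, and 0 calls with no change. The rule of omitting each library was not simulated. Simulated noise had the same spread in all groups, and no low genes were changed. These shares therefore do not describe the genes said to have risen or fallen.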

Additional observations from a re-analysis of the deposited data

How the results depend on the processing

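The counts of genes called in the fit of all libraries, 927 higher and 1561 lower, moved with several choices. A mean of at least 5 FPKM gave 596 and 963, median-of-ratios scaling 1413 and 930, sample weights 1508 and 2752, and a minimum fold of 2 gave 427 and 518. Omitting 1 library gave 396 to 1103 higher and 601 to 2011 lower genes, lowest without Control 2 and highest without GsMTx4 3. With the replicate number as a block, 723 were higher and 1005 lower; the labels do not say that equal numbers share a source, and same-numbered Control and DSS libraries correlated at 0.068, -0.0718 and 0.0744 in their deviations, so the numbers were not taken to pair the libraries. No called gene named here changed sign under any alternative, and 7 of the 15 tested genes given without a call passed under at least 1. Among genes without a call, the sign changed for some when 1 library was omitted: the difference ran from -0.30 (without DSS 2) to 0.020 (without DSS 1) for Il10, from -0.066 (without DSS 3) to 0.67 (without DSS 2) for Muc2, from -1.80 (without DSS 2) to 0.69 (without DSS 3) for Plac9b and from -1.04 (without DSS 2) over -0.018 (without DSS 3) to 1.68 (without DSS 1) for Ido1. With sample weights Ido1 stood at -0.85, and the cause was not tested. Fold changes of genes near 0 FPKM grew with pseudocounts of 0.1 and 0.01. Pooled spread over 3 libraries a group limits what could be called, and it includes that of the GsMTx4 libraries. A fit of the 6 Control and DSS libraries alone called 993 genes higher and 1971 lower. Between the fit of all libraries and that fit, the SE went from 0.39 to 0.20 for Gzmb and from 0.64 to 0.40 for Muc2. For Ido1 it went from 1.14 to 1.22.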
